A study of Homo sapiens with 20 samples.

Results

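The comparison described here set LNCaP cells held in early G1 by a CDK4/6 inhibitor and exposed to androgen against LNCaP cells deprived of androgen. LNCaP is an established human prostate cancer cell line of luminal epithelial character that depends on the androgen receptor. The members were the 6 arrays whose titles place them in the early G1 arrested group or the CDT treated group, out of 20 arrays in the series. The series asked which transcripts respond to dihydrotestosterone (DHT), a potent natural androgen, in a way that depends on the cell cycle phase.

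In the early G1 group (n = 3), cells in hormone-proficient medium had 0.5 µM PD-0332991 for 24 h and 10 nM DHT for the last 3 h. In the control, called CDT as in the labels (n = 3), cells had spent 72 h in CDT, a term the labels do not spell out, and had ethanol, the solvent, for 3 h. The groups therefore differed in the hormone, in the drug and in the medium, and the parts of these cannot be told apart in this comparison. 2 other groups were used to place it. CDT + DHT (n = 3) had 72 h in CDT and 3 h of 10 nM DHT without the drug. Late G1 (n = 3) was reached in hormone-proficient medium with roscovitine (5 µg/mL, 24 h), a kinase inhibitor that acts on CDK2 among others, and likewise had 10 nM DHT for 3 h. All cells were of the same line. No label states that replicates came from separate cultures, and the p-values then measure only the spread between arrays, which may be technical.

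The androgen receptor is a transcription factor that is activated by its ligand, moves to the nucleus and binds response elements made of a pair of short half-sites. In prostate luminal cells its known targets include the secreted proteases of the kallikrein family, lipid synthesis genes and regulators of growth. PD-0332991, also known as palbociclib, blocks CDK4 and CDK6. These kinases, with D-type cyclins, phosphorylate the retinoblastoma protein RB and so release E2F factors, which drive the genes of DNA replication.

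1 gene of 18417 tested, KLK2, was higher in early G1 than in CDT past the threshold of 0.05 on limma's adjusted p, and none was lower. At an unadjusted p under 0.05 there were 942 genes (5.11%), 395 of them higher (2.14%) and 547 lower (2.97%). KLK2 and KLK3 are neighbouring kallikrein genes on chromosome 19 that encode secreted serine proteases, KLK3 being prostate-specific antigen. They had the smallest p-values among the higher genes that met the level and overlap rule. The 250 bases before the start of each gene are shown because the same androgen-receptor-like element stands in both. The sequences are RefSeq's on GRCh38.p14, plus strand, KLK2 at chr19:50873189-50873438 and KLK3 at chr19:50854665-50854914. The capitals mark a 15-base stretch made of the element and 1 base on either side.
KLK2: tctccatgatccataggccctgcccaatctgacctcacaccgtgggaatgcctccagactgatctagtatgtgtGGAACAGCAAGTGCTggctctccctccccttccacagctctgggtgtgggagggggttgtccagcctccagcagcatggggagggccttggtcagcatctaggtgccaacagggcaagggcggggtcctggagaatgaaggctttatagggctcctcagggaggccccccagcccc
KLK3: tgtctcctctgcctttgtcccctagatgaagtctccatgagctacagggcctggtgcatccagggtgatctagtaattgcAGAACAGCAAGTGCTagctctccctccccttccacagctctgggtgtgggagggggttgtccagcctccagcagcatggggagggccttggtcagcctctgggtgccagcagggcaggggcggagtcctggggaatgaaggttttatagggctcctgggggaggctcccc
The searched motif was GNACA, any 4 bases and GTNC, read on both strands. These letters cover only a part of each half-site. The same letters matched in both genes. It lies at chr19:50873264-50873276 in KLK2 and at chr19:50854746-50854758 in KLK3. Aligned over 262 columns, the stretches shared 205 bases, or 78.2%. Of 35116 RefSeq windows that run from 250 bases before to 50 bases after a start, 769 (2.19%) held the motif. Among the 30 measured androgen-induced genes with such a window, 4 held the motif, namely AFF3, CENPN, KLK2 and KLK3. KLK2 and KLK3 are shown because they hold it, so this count is not a test. The windows of TIPARP, SGK1, OTULINL, RHOU, KLK4 and KLK15 did not hold these letters, while that of GATA2, a gene that was lower in early G1, did. A match is a description of the letters in this window and not evidence of binding.

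KLK2 rose. Values are the deposited intensities as log2(intensity + 1), and each difference is early G1 minus CDT. Its 3 early G1 arrays read 8.27, 8.61 and 9.29, and its 3 CDT arrays read 5.85, 5.66 and 5.75. All early G1 arrays lay above all CDT arrays. The difference was 2.97 ± 0.42 (SE), 7.85-fold, with an adjusted p of 0.0154 by limma over all genes. The call depended on the arrays and on the fit. The adjusted p was 0.505 when the spread came from the 2 compared groups alone, and it exceeded 0.05 without early G1 replicate 2 (0.0834), early G1 replicate 3 (0.104), CDT replicate 1 (0.0872), CDT replicate 2 (0.156) or CDT replicate 3 (0.121). The difference itself stayed between 2.67 and 3.20 over the 17 alternative settings.

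KLK3 read 9.66, 9.69 and 10.85 in early G1 and 6.52, 8.15 and 8.05 in CDT. Again the groups did not overlap, and CDT replicate 1 was the lowest array. The difference was 2.49 ± 0.50, with an adjusted p of 0.44 by limma, so it did not pass. It passed with a pseudocount of 16 (adjusted p 0.0101), with dim genes left out (0.0225) and with a trended, robust fit (0.000566). KLK2 and KLK3 are close relatives in sequence, and cross-hybridisation between their probes was not tested.

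The other kallikreins measured on the androgen-induced list did not share this separation. KLK4 read 5.47, 6.4 and 6.95 in early G1 and 6.16, 6.19 and 4.41 in CDT, a difference of 0.69 ± 0.55. KLK15 read 4.19, 4.74 and 3.74 against 5.4, 4.13 and 5.05, a difference of -0.64 ± 0.63. Both sets of arrays overlapped.

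**Figure D1:**
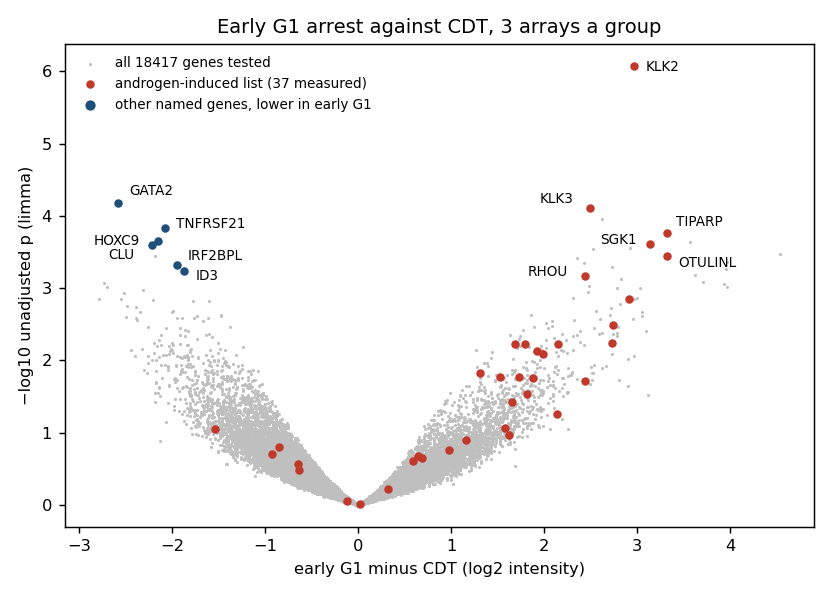
The x axis gives the difference early G1 minus CDT in log2 intensity and the y axis gives −log10 of the unadjusted limma p, 1 point per gene. Red points are the 37 measured androgen-induced genes, of which 31 lie right of 0. KLK2, with the smallest p, stands highest, at a difference of 2.97. TIPARP and OTULINL, both at 3.32, and SGK1, at 3.14, lie farther right.

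Androgen-induced genes as a group were higher in early G1. The list held 42 genes known to respond to androgen in prostate cells, of which 37 were measured. It was chosen with earlier results of these data known, so its counts are a description and not independent support. KLK2 was the only member to pass the adjusted threshold, against a background of 0.00543% of all genes called higher and 0% called lower. Of the 37, 31 had a difference above 0, where 47.9% of all genes did. The median difference was 1.69, against -0.04 over all genes. In 22 members (59.5%) every early G1 array lay above every CDT array, against 3.21% of all genes. In 1 member (2.70%), SPDEF, every early G1 array lay below, against 7.07% of all genes. The mean over the list was 5.53, 4.62 and 5.50 in the early G1 arrays and 3.29, 4.27 and 3.80 in the CDT arrays. Early G1 replicate 2 and CDT replicate 2 were thus the nearest to each other. The median stayed above 0 in all 17 alternatives, from 0.92 with a pseudocount of 16 to 1.95 without early G1 replicate 2.

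After the kallikreins, the members with the smallest p-values were TIPARP, SGK1, OTULINL and RHOU, none of which passed. TIPARP, a mono-ADP-ribosyltransferase, read 6.08, 4.21 and 5.37 in early G1 and 1.72, 2.61 and 1.35 in CDT, a difference of 3.32 ± 0.72. SGK1, a serum- and steroid-hormone-regulated kinase, read 5.01, 3.06 and 5.15 against 1.30, 2.47 and 0.02, a difference of 3.14 ± 0.70. OTULINL, an OTULIN-like protein, read 5.73, 3.97 and 5.34 against 0.02, 2.5 and 2.56, a difference of 3.32 ± 0.77. In all of these, early G1 replicate 2 was the lowest of its group and still lay above the highest CDT array. TIPARP, SGK1 and OTULINL each had an adjusted p of 0.44. All 3 were dim in CDT, so the size of their differences depends on the pseudocount. With a pseudocount of 16 the difference was 1.51 for TIPARP and 1.36 for OTULINL, against 2.67 for KLK2. RHOU read 5.76, 4.88 and 6.30 against 3.04, 4.10 and 2.47, a difference of 2.44 ± 0.60 with an adjusted p of 0.523.

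Other members were separated with smaller differences. NDRG1, a stress-responsive growth regulator, read 5.71, 5.19 and 6.81 in early G1 and 2.98, 4.51 and 3.78 in CDT (2.15 ± 0.69). PLPP1, a phospholipid phosphatase, read 7.89, 7.84 and 8.53 against 5.60, 6.91 and 6.69 (1.69 ± 0.54). TPD52, a protein amplified in prostate cancer, read 6.05, 4.57 and 5.53 against 3.37, 3.91 and 3.11 (1.92 ± 0.64). In each of them CDT was the lower group and its highest array stayed below the lowest of early G1. CAMKK2, a calcium-dependent kinase upstream of AMPK, differed by 1.53 ± 0.58. HOMER2, a scaffold protein, differed by 1.31 ± 0.49. PMEPA1, an inhibitor of TGF-β signalling, differed by 1.73 ± 0.66, and its early G1 arrays of 4.47, 4.65 and 5.67 lay above CDT arrays of 3.46, 3.28 and 2.87.

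The remaining non-overlapping members ranged from 0.98 in AFF3 to 2.91 in ZBTB10. They included CENPN, a kinetochore protein (1.79 ± 0.58), BMPR1B, a BMP receptor (2.74 ± 0.82), LIFR, the receptor of leukaemia inhibitory factor (2.44 ± 0.96), TRPM8, a cation channel (1.82 ± 0.77), HERC3, a ubiquitin ligase (1.99 ± 0.67), PART1, a prostate RNA (1.88 ± 0.72), ORM1 (1.65 ± 0.74) and ERRFI1, an inhibitor of the EGF receptor (1.16 ± 0.72). The 14 members with overlapping arrays included ELL2, an elongation factor, whose difference of 2.73 ± 0.88 was large but whose early G1 replicate 2, at 3.87, lay below CDT replicate 2, at 4.23. ABCC4, a drug and prostaglandin transporter, had the same arrangement, with early G1 replicate 2 at 5.04 below CDT replicate 2 at 5.41. SLC45A3, a prostate membrane transporter, differed by 0.64 ± 0.50. SPDEF, an ETS factor of luminal epithelium, read 3.41, 3.37 and 4.35 in early G1 and 4.65, 4.81 and 4.47 in CDT, a difference of -0.93 ± 0.70.

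**Figure D2:**
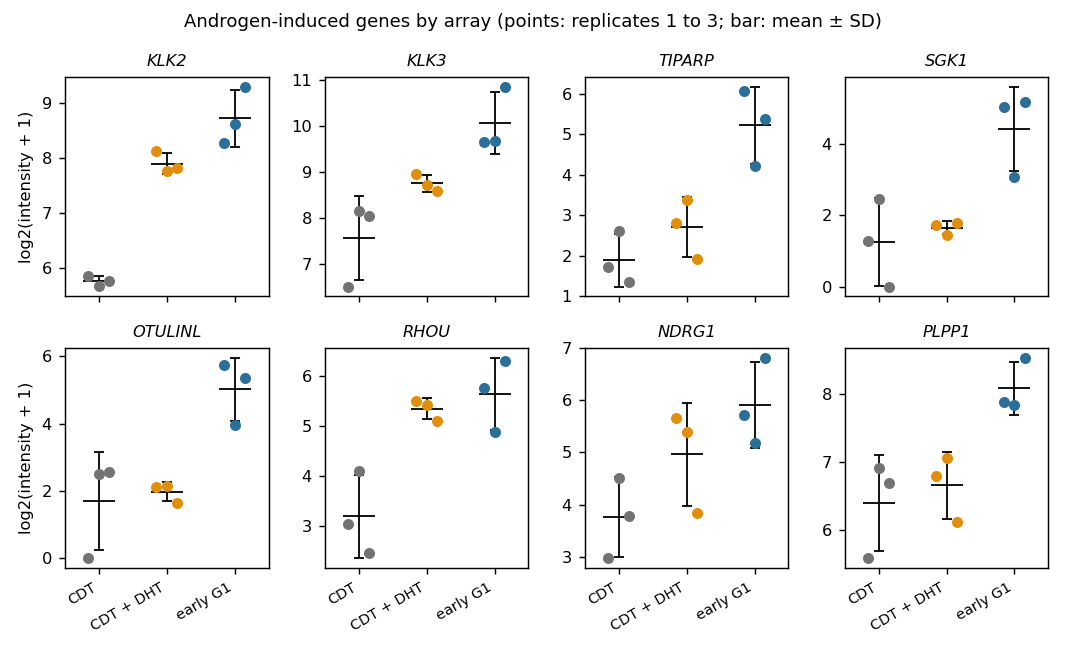
Each panel plots log2(intensity + 1) of 1 androgen-induced gene in the 3 arrays of CDT, CDT + DHT and early G1, with the mean and SD as a bar. KLK2 and RHOU in CDT + DHT lie far above CDT, while TIPARP, SGK1 and OTULINL in CDT + DHT lie nearer to CDT than to early G1.

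CDT + DHT, which had the hormone but not the drug, placed these genes in different ways. It also differed from early G1 in the medium, so drug and medium cannot be told apart in that comparison. The CDT + DHT arrays read 8.12, 7.76 and 7.81 for KLK2, all above CDT and below early G1. They read 8.96, 8.73 and 8.59 for KLK3, again between the other groups. For RHOU they read 5.51, 5.43 and 5.11, within the range of early G1, and early G1 differed from CDT + DHT by 0.29 ± 0.60. For TIPARP they read 2.81, 3.39 and 1.93, and early G1 was 2.51 ± 0.72 higher. For SGK1 they read 1.74, 1.45 and 1.78, all below the lowest early G1 array, and early G1 was 2.75 ± 0.70 higher. For OTULINL they read 2.13, 2.15 and 1.65, and early G1 was 3.04 ± 0.77 higher. None of these differences passed, with adjusted p by limma of 0.456 for TIPARP and 0.441 for both SGK1 and OTULINL.

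Across all genes, limma called 0 genes in either direction (0%) between early G1 and CDT + DHT, while 1486 genes (8.07%) had an unadjusted p under 0.05. On the androgen-induced list, 19 of 37 members did not overlap and were higher in early G1, against 7.16% of all genes, and 0 were lower, against 8.71%. The median difference was 0.97, with 33 members above 0, where 48.9% of all genes were. Of these 19 members, 13 were among the 22 separated from CDT. In CDT + DHT against CDT, which shares the CDT arrays, 6 members were higher without overlap, against 7.81% of all genes, and 1 was lower, against 5.95%. The median there was 0.28. The comparisons of early G1 and of CDT + DHT with CDT share their control arrays, so their values are given side by side and not correlated.

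Late G1, the other G1 arrest, had means between those of CDT and early G1 for KLK2, KLK3, TIPARP and SGK1. KLK2 read 8.07, 8.30 and 8.38 and KLK3 read 9.34, 9.41 and 9.47 in late G1. TIPARP read 4.76, 3.58 and 3.60, and early G1 differed from late G1 by 1.24 ± 0.72. SGK1 read 3.93, 2.84 and 4.30, and the groups overlapped. Over the list, 15 of 37 members were higher in early G1 than in late G1 without overlap, against 6.75% of all genes, and 1 was lower, against 5.54%. limma called 0 genes (0%) between early G1 and late G1, and 1307 (7.10%) had an unadjusted p under 0.05.

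Beyond the list, 5 further genes were among the 10 higher genes with the smallest p that had non-overlapping arrays and a mean of at least 5 in the higher group. EAF2, an androgen-responsive partner of the ELL elongation factors, read 6.47, 3.50 and 5.83 in early G1 and 2.92, 2.78 and 1.65 in CDT, a difference of 2.82 ± 0.77. RLN1, a relaxin, read 8.26, 6.06 and 8.49 against 3.57, 5.84 and 5.26, a difference of 2.72 ± 0.75. RLN1 has a near-identical neighbour, RLN2, so the signal may be of either gene. GADD45G, a stress-response gene, read 4.56, 5.01 and 5.60 against 3.06, 3.83 and 0.49. Its difference from CDT was 2.60 ± 0.75, while early G1 differed from CDT + DHT by only -0.21 ± 0.75. The first of these is smaller without CDT replicate 3, which at 0.49 lay far below the other CDT arrays. CCDC167 differed by 2.32 ± 0.68 and HEATR5A by 2.04 ± 0.62. None passed.

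The lower genes with the smallest p-values included transcription factors and secreted or membrane proteins. GATA2 is a pioneer factor that works with the androgen receptor in prostate cells. It read 3.47, 4.15 and 5.47 in early G1 and 7.37, 6.97 and 6.50 in CDT, and the groups lay more than 1 unit apart. The difference was -2.58 ± 0.51, with an adjusted p of 0.44. It passed with a pseudocount of 16 (0.0095), with dim genes left out (0.0225) and with the trended, robust fit (0.048). In CDT + DHT it read 6.81, 6.54 and 6.58, within the range of CDT, and in late G1 4.93, 5.13 and 4.49, within that of early G1.

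HOXC9, a homeobox factor, read 4.58, 4.81 and 5.47 in early G1 and 7.03, 7.16 and 7.11 in CDT, a difference of -2.15 ± 0.47. ID3, an inhibitor of helix-loop-helix factors, read 3.47, 4.08 and 3.97 against 5.73, 5.72 and 5.67, a difference of -1.87 ± 0.45. Its CDT + DHT arrays, at 5.87, 5.63 and 6.16, lay with CDT, and its late G1 arrays, at 4.07, 4.28 and 4.24, lay close to early G1. IRF2BPL, a nuclear ubiquitin ligase, read 5.18, 5.12 and 6.35 against 7.61, 7.33 and 7.57, a difference of -1.95 ± 0.47.

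CLU, the secreted chaperone clusterin, read 3.92, 3.36 and 4.88 in early G1 and 6.81, 6.43 and 5.58 in CDT, a difference of -2.22 ± 0.50. Its CDT + DHT arrays of 6.83, 7.13 and 6.71 overlapped CDT at its upper end. TNFRSF21, a death receptor, read 3.69, 3.47 and 3.97 against 5.48, 5.67 and 6.22, a difference of -2.08 ± 0.44. Unlike CLU, its CDT + DHT arrays, at 4.30, 4.59 and 4.06, were below CDT. HOXC9, CLU, ID3, IRF2BPL and TNFRSF21 did not pass, with adjusted p by limma from 0.44 to 0.48. All of them passed with a pseudocount of 16, with adjusted p of 0.0101 for HOXC9, 0.036 for CLU, 0.0139 for ID3, 0.0141 for IRF2BPL and 0.0114 for TNFRSF21. The other lower genes named by the same rule were OR10X1 (-2.79 ± 0.75), ZNF786 (-1.99 ± 0.56), CARMIL2 (-1.78 ± 0.48) and the ferritin pseudogene FTH1P5 (-1.60 ± 0.43), whose probes may read its parent gene.

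**Figure D3:**
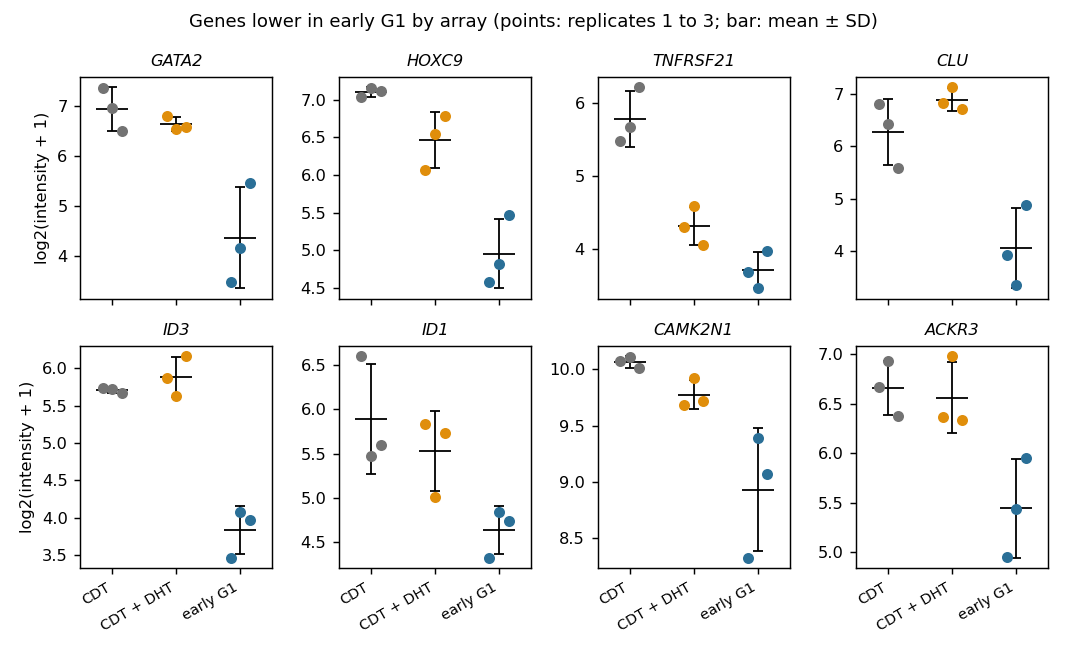
Each panel plots log2(intensity + 1) of 1 gene that was lower in early G1, in the 3 arrays of CDT, CDT + DHT and early G1, with the mean and SD as a bar. GATA2, CLU and ID3 in CDT + DHT lie with CDT, and TNFRSF21 in CDT + DHT lies between the other groups.

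Among 18 measured genes for partners of the androgen receptor, 4 were lower without overlap (22.2%) and 1 was higher (5.56%), against 7.07% and 3.21% of all genes. GATA2 was among the lower. The median was -0.17, and it was 0.04 without early G1 replicate 3. ERG, an ETS factor, read 3.75, 0.99 and 2.58 in early G1 and 5.91, 4.73 and 4.34 in CDT (-2.55 ± 0.69). NR3C1, the glucocorticoid receptor, read 3.55, 3.30 and 3.64 against 5.23, 4.0 and 3.79 (-0.84 ± 0.57). FOXA1, a pioneer factor, differed by -0.61 ± 0.56, with groups that met at 7.04 after rounding. ETV1, the ETS factor that LNCaP is known to overexpress, was higher at 6.50, 5.33 and 5.71 against 3.47, 4.97 and 4.99 (1.37 ± 0.70). None passed.

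Androgen-repressed genes had a median of -0.20 over 17 measured members, with 2 lower (11.8%) and 1 higher (5.88%) without overlap. These shares were near those of all genes, 7.07% and 3.21%. CAMK2N1, an inhibitor of CaM kinase II, read 8.33, 9.39 and 9.07 in early G1 and 10.07, 10.11 and 10.01 in CDT, a difference of -1.13 ± 0.42. ACKR3, a scavenging chemokine receptor, read 4.95, 5.44 and 5.95 against 6.67, 6.93 and 6.38, a difference of -1.22 ± 0.53. MET, the receptor of hepatocyte growth factor, was higher by 1.25 ± 0.83. The list's median turned positive without early G1 replicate 2, at 0.18, and without CDT replicate 2, at 0.13.

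The drug's own pathway showed little separation at the transcript level. Of 27 measured genes of the cyclin D, CDK4/6 and RB pathway, 0 were higher and 3 were lower (11.1%) without overlap, against 3.21% and 7.07% of all genes. The list had a median of 0.02 that turned negative in 5 of 17 alternatives. CCND1, cyclin D1, read 6.02, 6.58 and 6.98 in early G1 and 5.33, 7.02 and 6.99 in CDT (0.08 ± 0.70). CDK4 differed by 0.50 ± 0.72, CDK6 by 0.47 ± 0.84, RB1 by -0.73 ± 0.66 and CDKN1A, the inhibitor p21, by 0.24 ± 0.59, all with overlapping arrays. CCND1 turned to -0.48 without CDT replicate 1 and CDKN1A to -0.45 without CDT replicate 3. With quantile normalization 1 member of the list was separated and higher (3.7%, all genes 4.32%) and 0 were lower (all genes 6.1%). The lower members were CDKN2B, the inhibitor p15 (-1.42 ± 0.66), CDKN1C, the inhibitor p57 (-0.55 ± 0.57), and E2F6, a repressive E2F (-0.63 ± 0.67). CCND1 was lower in CDT + DHT, at 5.43, 5.41 and 4.01, than in early G1, with no overlap (1.57 ± 0.70).

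Genes of DNA replication did not separate as a group from CDT. Of 48 measured, 3 were higher (6.25%) and 4 lower (8.33%) without overlap, against 3.21% and 7.07% of all genes, and the median was 0.13, which turned negative in 4 of 17 alternatives. TYMS, thymidylate synthase, read 6.21, 5.82 and 6.99 in early G1 and 7.42, 7.76 and 7.35 in CDT (-1.17 ± 0.46). UHRF1, which maintains DNA methylation, read 3.19, 0.02 and 3.20 against 4.79, 4.01 and 4.12 (-2.17 ± 0.80). POLD1, a DNA polymerase subunit, differed by -1.49 ± 0.71 and DUT, a dUTPase, by -0.73 ± 0.46. ORC6, a subunit of the origin recognition complex, was higher at 6.39, 5.72 and 6.43 against 4.90, 5.23 and 4.59 (1.28 ± 0.56). PCNA, the replication clamp, differed by -0.34 ± 0.49 and MCM5, of the replicative helicase, by -1.12 ± 0.68, both with overlap. The list's means were 4.97, 3.78 and 5.05 in early G1 and 4.03, 4.98 and 4.43 in CDT, so the CDT arrays lay within the range of the early G1 arrays.

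Mitotic genes had a median of 0.40 over 57 measured, with 43 above 0 (75.4%, all genes 47.9%). Without overlap 3 were higher (5.26%) and 1 lower (1.75%), against 3.21% and 7.07% of all genes. Without early G1 replicate 2 and CDT replicate 1, 25 were higher (43.9%, all genes 17.6%) and 2 lower (3.51%, all genes 16.2%). CENPE, a kinetochore motor, read 5.76, 3.43 and 4.12 in early G1 and 1.69, 2.81 and 2.06 in CDT (2.25 ± 0.76). CDC25C, a phosphatase that activates CDK1, read 3.41, 3.42 and 3.54 against 1.58, 1.89 and 0.56 (2.11 ± 0.98). Its relative CDC25B went the other way, at 3.57, 5.83 and 5.87 against 6.72, 6.37 and 6.61 (-1.48 ± 0.55). The proliferation markers MKI67 (0.29 ± 0.76), CCNB1 (0.15), CDK1 (0.19) and CCNA2 (0.59) overlapped, and each turned negative when 1 array was left out. The median was 0.03 without early G1 replicate 1 and 0.88 without early G1 replicate 2. Replication-dependent histones had a median of 0.29 over 48 measured, with 4 higher (8.33%) and 1 lower (2.08%) without overlap. With quantile normalization 8 were higher (16.7%, all genes 4.32%). Among them H3C8 read 1.45, 3.30 and 2.73 in early G1 and about 0 in all CDT arrays, near the bottom of the scale. The 25 measured p53 targets had a median of -0.04, which turned positive in 8 alternatives, and 0 were separated in either direction.

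Against late G1, by contrast, the mitotic genes stood apart. Their median difference was 2.05, with 56 of 57 above 0 (all genes, 55.6%), and 32 were higher and 1 lower without overlap, where 6.75% and 5.54% of all genes were. The list's means were 4.98, 3.43 and 4.69 in early G1 and 2.56, 2.45 and 2.13 in late G1. PLK1, a mitotic kinase, read 4.6, 5.07 and 5.93 in early G1, 2.40, 2.03 and 1.16 in late G1 and 6.11, 6.24 and 5.35 in CDT. CDCA3, a cell division factor, read 3.70, 3.52 and 4.37 in early G1, 0.01, 1.79 and 0.01 in late G1 and 4.07, 3.69 and 3.37 in CDT. Early G1 thus lay close to CDT in both genes. The adjusted p by limma for early G1 against late G1 was 0.0641 for PLK1 and 0.0639 for CDCA3, so neither passed. Replication genes had a median of 0.85 against late G1, with 13 of 48 higher and 0 lower, and histones 1.1, with 22 of 48 higher and 1 lower, beside the same shares of all genes. The median of all genes in this comparison was 0.10.

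**Figure D4:**
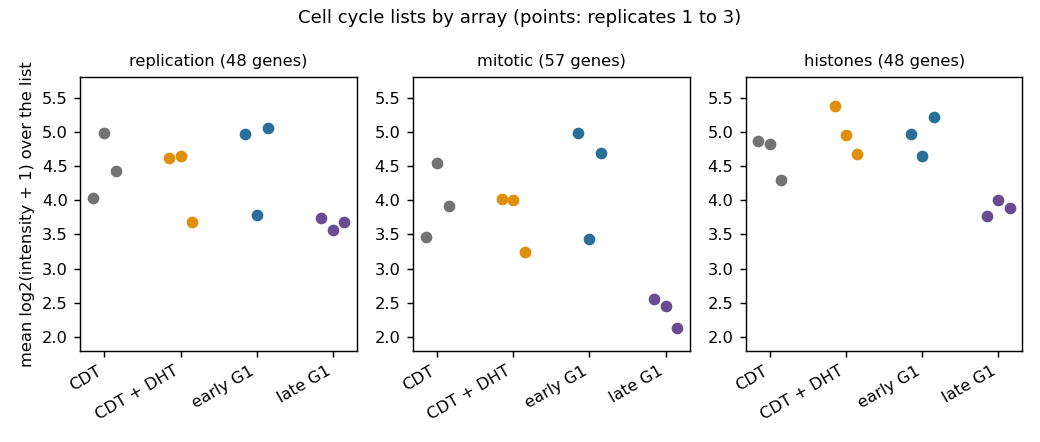
The y axis gives the mean log2(intensity + 1) over the replication, mitotic and histone lists, with 1 point per array in CDT, CDT + DHT, early G1 and late G1. In the mitotic panel the late G1 arrays lie between 2.13 and 2.56, below the early G1 arrays, which lie between 3.43 and 4.98 and overlap CDT.

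Lipid synthesis genes were mostly on the higher side. Of 19 measured sterol synthesis genes, 17 had a difference above 0 and the median was 0.91, although 1 was higher (5.26%, all genes 3.21%) and 0 were lower without overlap. That gene, EBP, a sterol isomerase, read 8.45, 8.57 and 9.06 in early G1 and 7.85, 8.06 and 7.77 in CDT (0.80 ± 0.41). IDI1, of the isoprenoid pathway, read 7.51, 4.66 and 6.63 against 3.37, 5.17 and 4.66 (1.87 ± 0.78). HMGCS1, an early enzyme of the pathway, read 7.51, 4.76 and 6.48 against 2.53, 5.98 and 5.87 (1.46 ± 0.82). In both, early G1 replicate 2 was the lowest of its group and CDT replicate 1 the lowest of all. Without these 2 arrays the list's median was 0.79, and without early G1 replicate 3 it was 0.60. With quantile normalization 6 members were separated and higher (31.6%, all genes 4.32%), and with centred arrays 3 were (15.8%, all genes 4.58%).

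Of 21 fatty acid synthesis genes, 16 were above 0, the median was 0.61, and 2 were higher without overlap (9.52%, all genes 3.21%). The median was 0.36 without CDT replicate 1 and 1.1 without CDT replicate 2. FASN, fatty acid synthase, read 3.45, 4.68 and 4.19 in early G1 and 2.54, 3.05 and 2.32 in CDT (1.47 ± 0.57). LPIN1, a phosphatidate phosphatase, read 2.97, 3.36 and 3.69 against 1.00, 2.48 and 0.00 (2.18 ± 0.73). Against CDT + DHT, 8 of these 21 genes were higher in early G1 without overlap and 0 were lower, where 7.16% and 8.71% of all genes were. They included the desaturase SCD and the elongase ELOVL5. None passed in either comparison.

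The other metabolic lists showed 0 separated genes in either direction on the values as deposited. With quantile normalization 4 of 13 polyamine genes were separated and higher (30.8%, all genes 4.32%), and with centred arrays 3 were (23.1%, all genes 4.58%). In both settings 1 androgen metabolism gene was higher (4.76%) and 1 glycolysis gene lower (5%). These shares were near those of all genes. With quantile normalization 4.32% of all genes were higher and 6.1% lower, and with centred arrays 4.58% and 6.53%. The medians were 0.26 over 13 polyamine genes, 0.15 over 21 androgen metabolism genes and 0.40 over 20 glycolysis genes, the last of which was 0.05 without early G1 replicate 3. ODC1, which starts polyamine synthesis, read 8.73, 8.39 and 9.75 in early G1 and 8.26, 8.65 and 8.08 in CDT (0.63 ± 0.47). UGT2B17, which inactivates androgens, differed by -0.07 ± 0.77 and turned to 0.39 without CDT replicate 2. Of 32 genes of protein folding and amino acid stress, 3 were higher (9.38%) and 2 lower (6.25%), against 3.21% and 7.07% of all genes. The chaperone cofactor SDF2L1 (0.64 ± 0.40) and the secreted folding factor MANF (0.65 ± 0.42) were higher, and XBP1, a factor of the same response, was lower (-0.57 ± 0.41).

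Immediate early genes, which respond within minutes to growth factors and stress, were mostly on the lower side. Of 35 measured, 7 were above 0, the median was -0.35, and 7 (20.0%) were lower without overlap, against 7.07% of all genes. Over the 17 alternatives the median ran from -0.63 without early G1 replicate 3 to -0.24 with a pseudocount of 16. KLF10, a TGF-β-inducible repressor, read 3.65, 4.54 and 2.42 in early G1 and 6.34, 4.55 and 5.74 in CDT (-2.0 ± 0.65). SPRY4, a feedback inhibitor of ERK signalling, read 0.27, 0.68 and 2.75 against 3.49, 3.02 and 2.91 (-1.91 ± 0.71). EGR3 (-1.39 ± 0.57), KLF4 (-1.17 ± 0.52) and EGR1 (-0.54 ± 0.42) were also separated. FOS (-0.35 ± 0.61) and MYC (-0.36 ± 0.46) overlapped. The 1 separated higher member was SGK1, which is also on the androgen-induced list.

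Of 20 genes of the ID, BMP and TGF-β lists, 5 (25.0%) were lower and 1 (5.0%) was higher without overlap, against 7.07% and 3.21% of all genes, with a median of -0.40. ID1, a relative of ID3, read 4.33, 4.84 and 4.74 in early G1 and 6.60, 5.47 and 5.60 in CDT (-1.25 ± 0.46). BAMBI, a decoy receptor, read 3.09, 4.29 and 4.86 against 5.59, 6.03 and 5.08 (-1.48 ± 0.61). BMP7, a ligand, differed by -1.04 ± 0.65. The higher member was the receptor BMPR1B. ID2 overlapped, with a difference of -0.72 ± 0.95 that turned to 0.17 without CDT replicate 2. The list's median was -0.03 without CDT replicate 2.

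Of 26 NF-κB and inflammatory genes, 5 were lower (19.2%, all genes 7.07%), 0 were higher and 4 were above 0, with a median of -0.36. With quantile normalization 2 were lower (7.69%, all genes 6.1%). CCL20, a chemokine, read 1.92, 0.55 and 0.16 in early G1 and 3.14, 3.54 and 3.41 in CDT (-2.49 ± 0.68), and NFKB1 differed by -1.85 ± 0.75. Both are dim. Of 27 interferon-stimulated genes, 4 were lower (14.8%) and 0 higher, among them IRF7 (-1.07 ± 0.43). Of 24 genes of PI3K, FOXO and growth factor receptors, 5 were above 0 (20.8%, all genes 47.9%). Their median was -0.38, and it was -0.08 without early G1 replicate 2. Without overlap 1 was higher (4.17%, all genes 3.21%) and 0 were lower (all genes 7.07%). The higher one was the receptor IGF1R at 3.78, 4.38 and 4.29 against 3.14, 2.61 and 2.65 (1.35 ± 0.61). Of 20 neuroendocrine genes, 1 was lower (5.0%, all genes 7.07%). None of the genes in these signalling lists passed.

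**Figure D5:**
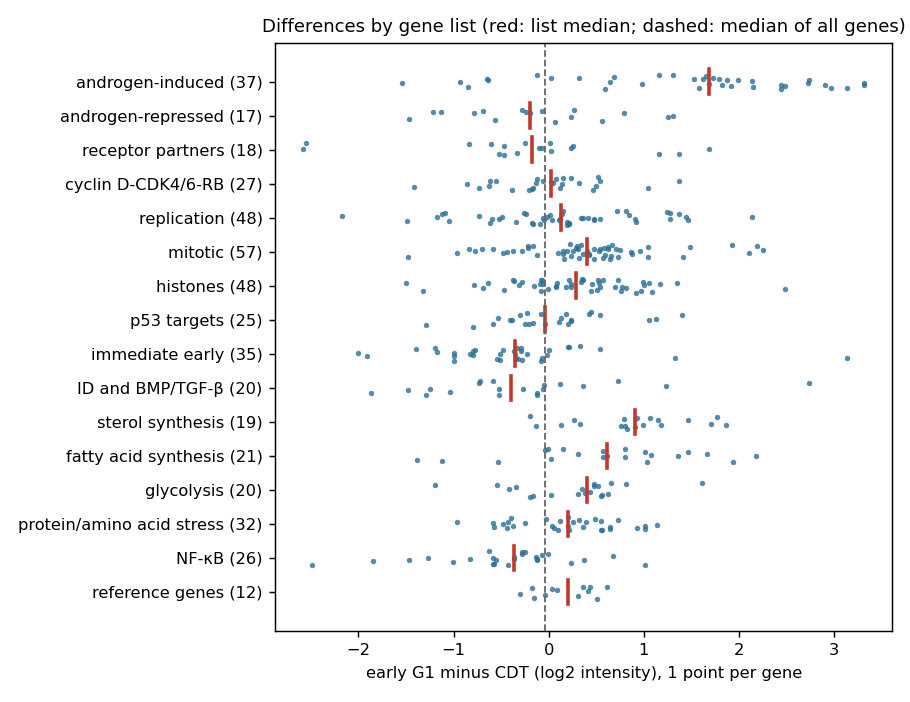
Each point is 1 gene, the x axis gives the difference early G1 minus CDT in log2 intensity, and each row is a list with the number of genes measured. The median of the androgen-induced list, 1.69, is the farthest of the lists drawn from the median of all genes at -0.04.

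The markers of the labelled cell type were present. The 9 measured luminal markers had a mean of 6.45 to 7.37 in the early G1 arrays and 5.97 to 6.45 in the CDT arrays. KLK2 and KLK3 are themselves among them, and 8 of the 9 had a mean of at least 5 over the 6 arrays. Over the longer lists of other cell types, the means were 2.55 to 3.27 in early G1 and 3.03 to 3.33 in CDT for 14 stromal markers, and 2.04 to 2.96 and 2.21 to 3.27 for 12 leukocyte markers. They were 2.66 to 3.63 and 3.4 to 3.98 for 8 endothelial markers, and 3.20 to 3.27 and 3.17 to 3.58 for 8 basal epithelial markers. Each of these ranges overlapped between the groups. Of the endothelial markers, 4 of 8 (50.0%) were lower in early G1 without overlap, against 7.07% of all genes, and with quantile normalization 2 were (25.0%, all genes 6.1%). They were PECAM1, CLDN5, CDH5 and ENG. CDH5, an endothelial cadherin, read 6.67, 6.93 and 6.94 in early G1 and 7.48, 7.25 and 7.13 in CDT. ENG, a TGF-β co-receptor, read 5.30, 5.38 and 5.66 against 5.78, 6.4 and 6.43. Of the stromal markers, COL1A1 and FN1 were lower without overlap (14.3%). FN1, fibronectin, which epithelial cells can also make, read 4.96, 5.51 and 5.86 against 6.70, 7.57 and 7.44 (-1.79 ± 0.61). Of the leukocyte markers 1 was lower, CD3D (8.33%, all genes 7.07%), and of the basal markers 0 were separated. No marker was at 0 on all 6 arrays, and the part of other cell types in the results was not tested. In RNA from whole cultures, fewer cells of a type and less RNA per cell cannot be told apart.

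The arrays set the limits of these values. Median intensity ran from 6.65 to 8.85 in early G1 and from 7.45 to 8.25 in CDT, on the linear scale. In CDT + DHT it was 7.84, 8.17 and 5.44. Over 3305 brighter genes, correlations were 0.663 to 0.829 within early G1, 0.611 to 0.884 within CDT and 0.424 to 0.883 between the groups. Early G1 replicate 2 and CDT replicate 1 stood apart from their groups on the same side of the main axis of within-group variation. That axis held 29.1% of the variance within groups. CDT + DHT replicate 3 stood apart from its group on the same side. Without early G1 replicate 2 and CDT replicate 1, the androgen-induced median was 1.55. In that fit limma called 0 genes, with an adjusted p of 0.298 for KLK2. The 12 reference genes, which most cells use, had a median difference of 0.20 and 0 separated members, with means of 7.29, 6.56 and 7.69 in early G1 and 6.44, 7.52 and 7.05 in CDT.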

How the data were processed

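RNA from LNCaP cells was amplified, labelled and measured on 20 Affymetrix Gene 1.0 ST arrays, per the labels' protocols. The authors deposited linear intensities for 33297 transcript clusters, and the submitters' processing notes name Affymetrix Expression Console 1.1. Its summary method and normalization are not stated in the sources used here. Values were used as log2(intensity + 1), without further normalization. A fold from such values can understate the change of dim genes, and the differences of dim genes depend on the pseudocount. Array intensities carry no read depth, so the number of arrays limits the precision.

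The platform annotation lists 21214 features, 19460 of them with 1 symbol, 1754 with several, and 12083 features are not listed. Only features with 1 symbol were named. Symbols were updated through Entrez IDs in RefSeq GRCh38.p14, where 19429 matched. For 769 genes with several features the brightest was used, which left 18417 genes. No 2 arrays were identical.

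The tests, all two-sided, came from limma 3.58.1 (R 4.3.3; lmFit, eBayes) with 1 coefficient per group over all 20 arrays. Benjamini-Hochberg adjustment ran over the 18417 genes, and 0.05 was the threshold. The fit was tested on simulated data. Lists are described by counts of genes whose 3 arrays a side do not overlap and by medians, with no test. The members and lists were chosen with earlier results of these data known. Genes named were those that passed, the 10 per direction with the smallest p that had no overlap and a mean of at least 5 in the higher group, up to 6 separated and 3 other members per list, and a fixed set. A few further members, such as ORM1 and AFF3, were named to complete a list's count after their values were seen. Replicate numbers were not used to pair the arrays in the main fit. Alternatives were another pseudocount (16), quantile normalization, centred arrays, dim genes left out (mean under 4), the mean of a gene's features, every feature, a trended and robust fit, array weights, a fit of the compared groups alone, a block for the replicate number, and each array left out, as well as early G1 replicate 2 and CDT replicate 1 together. Promoter windows came from RefSeq.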

Additional observations from a re-analysis of the deposited data

Results flagged for a closer look

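Features without a listed gene were outside the comparisons above. When all 33297 features were tested together, 3 of them differed between early G1 and CDT, each higher in early G1. Feature 7893570 read 4.32, 4.32 and 3.59 in early G1, 0.04, 0.07 and 0.10 in CDT and 4.09, 3.36 and 3.33 in CDT + DHT. Its difference from CDT was 4.01 ± 0.63, with an adjusted p of 0.0364 by limma. Features 7943025 and 7950971 held the same values on all 6 arrays, 7.55, 6.28 and 7.71 in early G1 and 2.58, 3.42 and 2.67 in CDT, with CDT + DHT at 5.29, 4.22 and 5.03. Their difference from CDT was 4.29 ± 0.52, with an adjusted p of 0.00205 by limma, and they count as 1 signal. The genes they measure are not named here.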

How the results depend on the processing

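In early G1 against CDT, limma called 1 gene. The count was 13 (3 higher, 10 lower) with a pseudocount of 16, 5 with dim genes left out, 4 with every feature tested and 3 with the trended, robust fit. It was 0 when the other groups were left out of the fit, 0 without CDT replicate 1 and early G1 replicate 2, and 0 to 1 when 1 array was left out. Early G1 against CDT + DHT gave 0 genes, but 9 with a pseudocount of 16, 1 with dim genes left out, 1 with the trended, robust fit and 10 with array weights. Early G1 against late G1 gave 0 genes, but 7 with a pseudocount of 16, 8 with quantile normalization, 6 with centred arrays, 14 with dim genes left out, 21 with the trended, robust fit, 16 with array weights and 0 to 2 when 1 array was left out. The cause was not tested. A pseudocount of 16 shrinks dim genes by construction: of 86 genes (among 187 described) with a difference of at least 1, 60 were smaller by over 1.5 times.

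Same-numbered arrays of early G1 and CDT did not deviate together (correlations -0.391, -0.414 and -0.123). This cannot settle whether they were handled together, because differently numbered arrays stood apart on the main axis of within-group variation. With the replicate block, 0 genes were called in early G1 against CDT, and KLK2 had an adjusted p of 0.0604. Over these 187 genes and their alternatives, values stayed on their side of the threshold in 3095 cases, passed it in 14 and lost it in 8, all of KLK2. In 38 genes that were not called, 92 of 3117 values turned direction, from differences of at most 0.72. No called value turned.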
